A study of Homo sapiens with 8 samples.

Results

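Mesenchymal and skeletal lineage genes are described here as 10 named genes of the 19414 coding genes counted in every library. They are the repressors SNAI2, ZEB1 and ZEB2, the transcription factors TWIST1, TWIST2, PRRX1, RUNX1 and RUNX2, the adhesion molecule CDH2 and the filament protein VIM. All 10 were found by gene symbol, and 8 of them had enough reads to be tested. TWIST1 and ZEB2 did not.

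TT-seq was run on U2OS, a human osteosarcoma cell line. Cells take up a thiol-labelled uridine (4-SU), and the RNA made in its presence is sequenced. There were 4 genotypes with 2 libraries each, labelled Zab + MYC O/E, MYC O/E, Zab and WT, and O/E is read here as overexpression. The study's design line writes Zab as Zαβ, a name in common use for the Z-DNA- and Z-RNA-binding domains of the editing enzyme ADAR, and its title concerns MYC, FACT (a histone chaperone) and Z-DNA. The construct behind Zab, the means of MYC overexpression, whether a genotype was 1 clone, and whether replicates were separate cultures are not stated in the labels. P-values therefore reflect the spread between libraries, which may be technical. That spread was estimated in part from other genes of similar level.

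As background, SNAI2 (Slug), ZEB1 and ZEB2 are zinc-finger repressors that bind E-box sequences and silence epithelial genes such as CDH1, while TWIST1 and TWIST2 are basic helix-loop-helix factors that act with partner proteins. Together they are the best known switches of the epithelial-mesenchymal transition, in which cells lose junctions and take up N-cadherin (CDH2) and vimentin (VIM). RUNX2 is the factor required for osteoblast formation, and RUNX1 is its relative known from blood stem cells. PRRX1 marks limb and craniofacial mesenchyme in mice.

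RUNX2 and RUNX1 are relatives that moved opposite ways in MYC O/E over WT, so the bases before their annotated starts are shown for comparison. The RefSeq promoter table (GRCh38.p14) held 16 windows for 8 of the 10 genes and none for SNAI2 and TWIST1. Each window was read here over the 250 bases before the start. RUNX2 has 2 windows on chromosome 6, plus strand, an upstream one at chr6:45328080-45328329 and a downstream one at chr6:45422025-45422274. RUNX1 has 1, on the minus strand at chr21:34888700-34888949. Capitals mark the RUNX-type motif (TGTGGT or, on the other strand, ACCACA) and the alternating run CGCGCG, a base order known to favour Z-DNA.
RUNX2 upstream: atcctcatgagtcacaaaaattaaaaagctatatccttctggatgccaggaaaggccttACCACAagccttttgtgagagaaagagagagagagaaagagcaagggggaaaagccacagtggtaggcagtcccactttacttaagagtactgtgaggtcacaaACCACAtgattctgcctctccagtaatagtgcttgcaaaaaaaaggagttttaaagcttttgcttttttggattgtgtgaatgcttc
RUNX2 downstream: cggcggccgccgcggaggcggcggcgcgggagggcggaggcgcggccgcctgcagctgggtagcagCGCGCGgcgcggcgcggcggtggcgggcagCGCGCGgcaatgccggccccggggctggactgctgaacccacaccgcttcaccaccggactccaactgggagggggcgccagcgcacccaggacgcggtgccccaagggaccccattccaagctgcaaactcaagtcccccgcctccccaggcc
RUNX1: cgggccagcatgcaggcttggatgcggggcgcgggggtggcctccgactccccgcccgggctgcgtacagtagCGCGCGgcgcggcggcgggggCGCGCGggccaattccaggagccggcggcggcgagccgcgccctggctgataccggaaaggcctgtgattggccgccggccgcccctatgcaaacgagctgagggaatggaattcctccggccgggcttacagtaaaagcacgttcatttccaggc

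The upstream RUNX2 window held 2 RUNX-type motifs and no CGCGCG, and the downstream window held 2 CGCGCG and no RUNX-type motif. The RUNX1 window held 2 CGCGCG. Over all 35116 windows in the table, 11.0% held the RUNX-type motif on either strand and 14.1% held CGCGCG. Among the 16 windows of these genes, 4 held the RUNX-type motif, 3 held CGCGCG, and 2 held CAGGTG or CACCTG, the E-box form bound by SNAI2 and ZEB1, which stood in 17.5% of all windows. ZEB1 has more of these windows than any other gene. Every window with CAGGTG or CACCTG and some with the RUNX-type motif are its own, so the counts are not of separate genes. None of the 16 held CACGTG, the E-box form best known for MYC, against 6.34% of all windows. A match is a description of letters, and no binding was measured.

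In 7 libraries the RUNX2 transcript that was counted starts at the downstream site, and in WT replicate 1 at the upstream site. These starts lie 93945 bases apart in hg19, the spacing of the RefSeq windows as well. Since the counts cover exons of 1 transcript, they do not say which start was used.

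**Figure D1:**
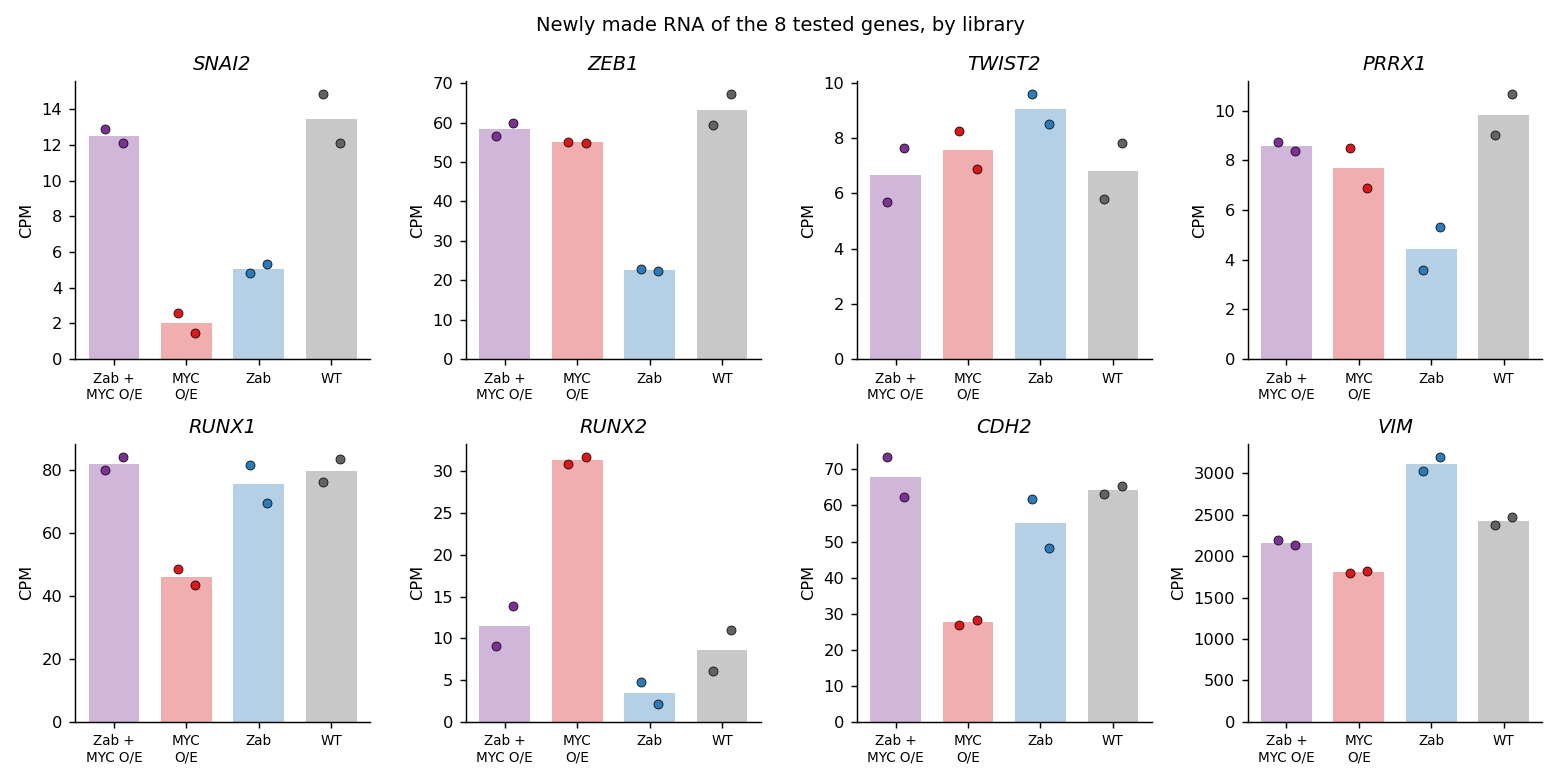
CPM (reads per 1000000 after scaling) of the 8 tested genes in each library. Points are libraries, bars are the means of 2 libraries, and every axis starts at 0. RUNX2 stands highest in MYC O/E and SNAI2 lowest there, ZEB1 is lowest in Zab, and the Zab + MYC O/E points overlap or adjoin the WT points except for VIM, where they lie lower.

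The libraries held 1839960 to 4072059 recovered coding-exon reads. Those labelled Zab stood apart, with 6.55 ± 0.154 coding-exon reads per 100 tags, while Zab + MYC O/E had 13.5 ± 0.0423, MYC O/E had 13.7 ± 0.139 and WT had 13.1 ± 0.00291 (SD, n = 2 each). The targeted gene went against a label: MYC averaged 757 CPM in Zab + MYC O/E, 6568 in MYC O/E, 981 in Zab and 760 in WT. ADAR averaged 32109 CPM in Zab + MYC O/E, 453 in MYC O/E, 551 in Zab and 33735 in WT. ADAR RNA was thus 61.2-fold higher in WT than in Zab. ADAR RNA did not go with the Zab label in either direction. It was high in Zab + MYC O/E but low in Zab, and high in WT but low in MYC O/E. As the construct behind Zab is not stated, which of the labels hold cannot be told. WT is a reference by label only. Groups are therefore named as "the libraries labelled X", also where the word libraries is left out. Of the 6 pairwise comparisons, all but Zab + MYC O/E over WT and MYC O/E over Zab set libraries high in ADAR RNA against libraries low in it, and its part in the results below was not tested. As a check of the cell line, VIM ranked 48 of 19414 genes per kilobase of exon and COL1A1, the main collagen of bone, averaged 292 CPM in WT. Its partner chain COL1A2 had 6 reads over all 8 libraries, the bone genes ALPL, BGLAP and IBSP had at most 8, 4 and 4 reads in a library, and the osteoblast factor SP7 had none. Among other cell types' markers, the blood genes CD3E and GATA1 and the muscle genes MYOD1 and MYOG had no read in any library, while the blood genes TAL1 and GATA2 had 2 to 44 and 2 to 17 reads per library and the muscle gene PAX7 had 4 to 35.

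The libraries labelled MYC O/E and Zab differed from WT in 5 of the 8 tested genes each, with SNAI2 lower in both and RUNX2 and VIM moving opposite ways. In MYC O/E over WT, RUNX2 rose while SNAI2, CDH2, RUNX1 and VIM fell, with 44% of all 11985 tested genes called in that comparison, 22.2% of them higher and 21.8% lower as shares of all tested genes. In Zab over WT, VIM rose while ZEB1, SNAI2, RUNX2 and PRRX1 fell, against a background of 49.7% of genes called (23.8% higher, 25.9% lower). In Zab + MYC O/E over WT only VIM was called, lower, where 0.601% of genes were called. Calls were made in limma at a p under 0.05 after Benjamini-Hochberg adjustment over all genes tested. Changes are on the log2(CPM + 1) scale, which understates changes of low genes. The median log2 change of the 8 genes was -0.37 in MYC O/E over WT and -0.62 in Zab over WT, where the median of all tested genes was -0.01 and -0.05. On the scale as deposited, where each library carries the authors' own factor of unstated basis in place of TMM scaling, the same medians were 0.10 and -1.17 for the 8 genes, and 0.47 and -0.63 for all tested genes. Of the 8 genes, the deposited scale called 1 higher and 2 lower in MYC O/E over WT, none higher and 7 lower in Zab over WT, and VIM higher in Zab + MYC O/E over WT. The calls over all genes were then 5838 higher and 1149 lower in MYC O/E over WT, 575 and 6882 in Zab over WT, and 1749 and 3 in Zab + MYC O/E over WT, against 2663 and 2613, 2850 and 3106, and 16 and 56 in the main test. With library totals, Zab over WT had 1888 higher and 4149 lower. The 3 comparisons share the WT libraries.

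**Figure D2:**
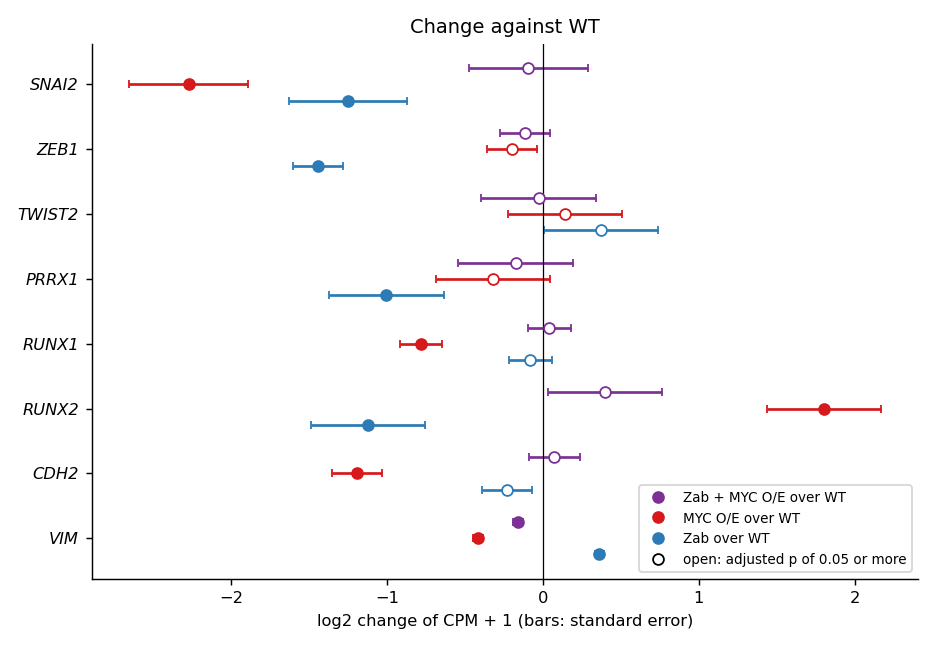
Change against WT of the 8 tested genes, as the log2 change of CPM + 1 with its standard error. Filled points passed an adjusted p of 0.05. RUNX2 lies at 1.80 in MYC O/E and -1.12 in Zab, ZEB1 at -0.20 and -1.45, and the Zab + MYC O/E points lie between -0.18 and 0.40.

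SNAI2 RNA was low in both single-genotype groups and lowest in MYC O/E. This gene (chr8:49830157-49833988 in hg19, minus strand) had 12.9 and 12.1 CPM in Zab + MYC O/E, 2.58 and 1.48 in MYC O/E, 4.79 and 5.31 in Zab, and 14.8 and 12.1 in WT. The MYC O/E libraries lay below the Zab libraries and both below the other groups, while Zab + MYC O/E and WT overlapped. In reads these are small numbers, 10 and 6 in MYC O/E, 8 and 10 in Zab, and 46 and 34 in WT. SNAI2 was 6.65-fold lower in MYC O/E than in WT, a log2 change of -2.27 ± 0.381 (SE; limma adjusted p = 1.88e-05). It was 2.67-fold lower in Zab than in WT (log2 change -1.25, limma adjusted p = 0.00791), a call that was lost without WT replicate 1 (adjusted p = 0.0736) and with the WT and the Zab + MYC O/E pairs each averaged to 1 sample. MYC O/E lay 2.49-fold below Zab (log2 change -1.02, limma adjusted p = 0.0242), which as deposited was -0.16 and not called (adjusted p = 0.696). The call was also lost with edgeR (adjusted p = 0.0526) and DESeq2 (adjusted p = 0.0694) on the recovered reads, with a pseudocount of 5 CPM (adjusted p = 0.0584), with averaged pairs (adjusted p = 0.0604), without MYC O/E replicate 2 (adjusted p = 0.177) and without Zab replicate 2 (adjusted p = 0.0545).

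SNAI2 in Zab + MYC O/E stood 6.17-fold above MYC O/E (log2 change 2.18, limma adjusted p = 3.19e-05) and 2.47-fold above Zab (log2 change 1.16, limma adjusted p = 0.0134). The second call was lost with averaged pairs, and without Zab + MYC O/E replicate 1 (log2 change 1.12) or replicate 2 (1.20). These comparisons share libraries with those above.

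ZEB1 fell in Zab over WT and was not called in MYC O/E over WT. It encodes a repressor with a zinc-finger cluster at each end (chr10:31607346-31818732 in hg19, plus strand, over its counted transcripts). ZEB1 had 56.7 and 60.0 CPM in Zab + MYC O/E, 55.1 and 54.9 in MYC O/E, 22.8 and 22.3 in Zab, and 59.4 and 67.2 in WT. The 2 Zab libraries lay far below the other 6, whose values ran within 54.9 to 67.2 CPM. ZEB1 was 2.81-fold lower in Zab than in WT (log2 change -1.45 ± 0.161 SE, limma adjusted p = 2.41e-08). Its log2 change in MYC O/E over WT was -0.20 (adjusted p = 0.34). It was 2.59-fold higher in Zab + MYC O/E than in Zab and 2.44-fold higher in MYC O/E than in Zab (limma adjusted p = 9.53e-08 and 2.02e-07). 4 different ZEB1 transcripts were counted among the libraries, with exon lengths of 6129 to 6681 bases.

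ZEB2, the relative of ZEB1, had 2 reads in MYC O/E replicate 2 and 4 in WT replicate 2, and none in the other 6 libraries. TWIST1 had no read in any library. A count of 0 allows up to 3 reads, which is 0.120 CPM over all 8 libraries and 0.738 to 1.80 CPM in single ones (counting error only). No fold is given for either gene.

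TWIST2 did not pass the test in any comparison. This helix-loop-helix factor of skin and bone mesenchyme (chr2:239756726-239832230 in hg19) had 5.67 and 7.65 CPM in Zab + MYC O/E, 8.24 and 6.89 in MYC O/E, 9.59 and 8.49 in Zab, and 5.81 and 7.82 in WT. The Zab libraries were the highest, and the other 3 groups overlapped. The TWIST2 log2 change was 0.37 ± 0.367 (SE) in Zab over WT (limma adjusted p = 0.421) and 0.14 ± 0.367 in MYC O/E over WT (adjusted p = 0.787). TWIST2 had 16 to 32 reads per library.

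PRRX1, the homeobox factor of limb mesenchyme (chr1:170633272-170708562 in hg19), was called in Zab over WT only in the main test. It had 8.76 and 8.39 CPM in Zab + MYC O/E, 8.50 and 6.89 in MYC O/E, 3.60 and 5.31 in Zab, and 9.03 and 10.7 in WT. Both Zab libraries lay below all others, on 6 and 10 reads. PRRX1 was 2.21-fold lower in Zab than in WT (log2 change -1.01 ± 0.368 SE, limma adjusted p = 0.0252). The call was lost with edgeR (adjusted p = 0.0576) and DESeq2 (adjusted p = 0.117) on the recovered reads. It was also lost with averaged pairs, and without Zab replicate 1 (log2 change -0.78), WT replicate 1 (-1.12) or WT replicate 2 (-0.91). In Zab + MYC O/E over Zab, PRRX1 had a log2 change of 0.83 with an adjusted p of 0.0627. There it was called with library totals, at 1.03 (limma adjusted p = 0.0204), and as deposited, at 1.56 (limma adjusted p = 0.000357). In MYC O/E over Zab it was called as deposited, at 1.61 (limma adjusted p = 0.000204).

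RUNX2 was the tested gene of the 10 that rose in MYC O/E over WT. It had 9.02 and 13.8 CPM in Zab + MYC O/E, 30.9 and 31.7 in MYC O/E, 4.79 and 2.12 in Zab, and 6.13 and 11.0 in WT (chr6:45296067-45518819 in hg19, plus strand). MYC O/E stood above every other library and Zab below, while Zab + MYC O/E and WT overlapped. In reads, MYC O/E had 120 and 129, Zab had 8 and 4, and WT had 19 and 31. RUNX2 was 3.65-fold higher in MYC O/E than in WT (log2 change 1.80 ± 0.365 SE, limma adjusted p = 0.000202). It was 2.48-fold lower in Zab than in WT (log2 change -1.12, limma adjusted p = 0.0124), a call lost with DESeq2 (adjusted p = 0.0603). That call was also lost with averaged pairs, without Zab replicate 2 (log2 change -0.68) and without WT replicate 2 (-0.75). MYC O/E over Zab gave the widest gap of any of the 8 genes, 9.06-fold (log2 change 2.93, limma adjusted p = 1.24e-07).

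RUNX2 in Zab + MYC O/E was 2.74-fold lower than in MYC O/E (log2 change -1.41, limma adjusted p = 0.00239) and 3.30-fold higher than in Zab (log2 change 1.52, limma adjusted p = 0.00111). Without Zab + MYC O/E replicate 1 the first of these had an adjusted p of 0.0617.

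RUNX1, on chromosome 21 (36160098 to 36260996 in hg19, minus strand), fell in MYC O/E, where its relative RUNX2 rose. RUNX1 had 79.9 and 84.2 CPM in Zab + MYC O/E, 48.7 and 43.3 in MYC O/E, 81.5 and 69.6 in Zab, and 76.1 and 83.6 in WT. Only the MYC O/E libraries were low, and the other 3 groups overlapped. RUNX1 was 1.74-fold lower in MYC O/E than in WT (log2 change -0.78 ± 0.137 SE, limma adjusted p = 3.34e-05), and on the scale as deposited this was -0.30 with an adjusted p of 0.0664. In Zab over WT the RUNX1 log2 change was -0.08 (adjusted p = 0.648), while as deposited it was called, at -0.71 (adjusted p = 5.72e-05). It was 1.78-fold higher in Zab + MYC O/E than in MYC O/E (log2 change 0.82, limma adjusted p = 1.65e-05). CBFB, the shared partner that helps RUNX proteins bind DNA, had 109 ± 3.07 CPM in MYC O/E and 50.4 ± 0.835 in WT (SD, n = 2 each), and it rose by a log2 change of 1.10 (limma adjusted p = 1.38e-07).

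CDH2, which encodes N-cadherin, the adhesion molecule of mesenchymal and neural cells (chr18:25530930-25757094 in hg19, minus strand), had 73.5 and 62.4 CPM in Zab + MYC O/E, 26.8 and 28.3 in MYC O/E, 61.7 and 48.3 in Zab, and 63.2 and 65.4 in WT. The MYC O/E libraries were the low ones, as for RUNX1. CDH2 was 2.34-fold lower in MYC O/E than in WT (log2 change -1.19 ± 0.162 SE, limma adjusted p = 8.02e-07) and 2.47-fold higher in Zab + MYC O/E than in MYC O/E (log2 change 1.27, limma adjusted p = 2.87e-07). In Zab over WT it did not pass (log2 change -0.23, adjusted p = 0.244), although it was called with library totals, at -0.43 (adjusted p = 0.0287), and as deposited, at -0.85 (adjusted p = 3.93e-05).

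VIM, which encodes the intermediate filament vimentin (chr10:17270240-17279592 in hg19, plus strand), was by far the most abundant of the 10. It had 2193 and 2133 CPM in Zab + MYC O/E, 1800 and 1820 in MYC O/E, 3029 and 3198 in Zab, and 2373 and 2469 in WT. No group overlapped another, in the order Zab, WT, Zab + MYC O/E, MYC O/E. Its log2 change was -0.42 ± 0.0313 (SE) in MYC O/E over WT, 0.36 ± 0.0313 in Zab over WT and -0.16 ± 0.0313 in Zab + MYC O/E over WT (limma adjusted p = 1.38e-11, 2.26e-10 and 0.00711). These small shifts depend on the scaling between libraries: as deposited, the 3 values turned round to 0.077, -0.27 and 0.12, where the median of all tested genes was 0.47, -0.63 and 0.27. The Zab + MYC O/E over WT call was also lost with library totals (adjusted p = 0.0592), without Zab + MYC O/E replicate 2 (adjusted p = 0.28) and without WT replicate 2 (adjusted p = 0.382). In bulk RNA, fewer cells making a transcript and less of it per cell cannot be told apart, which holds for every gene here.

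Set against MYC O/E, the libraries labelled Zab + MYC O/E were higher in SNAI2, CDH2, RUNX1 and VIM and lower in RUNX2, 5 of 8 tested genes where 44.5% of all genes were called (21.9% higher, 22.6% lower). The VIM log2 change there was 0.26 (limma adjusted p = 1.25e-07), and it kept its sign but not its call as deposited (0.038, adjusted p = 0.437). Set against Zab, they were higher in RUNX2, ZEB1 and SNAI2 and lower in VIM, 4 of 8 where 49.9% of all genes were called (25.8% higher, 24.1% lower). VIM had a log2 change of -0.52 in that comparison and 0.39 as deposited, while with library totals 7 of the 8 genes were called. MYC O/E over Zab called 6 of 8 (56.3% of all genes, 29.6% higher and 26.7% lower), with RUNX2 and ZEB1 higher and SNAI2, CDH2, RUNX1 and VIM lower. On the deposited scale CDH2 (0.14), RUNX1 (0.41) and VIM (0.35) turned to higher in that last comparison, where the median of all tested genes was 1.113. These comparisons share libraries.

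A test of the difference itself asked whether Zab + MYC O/E over MYC O/E differed from Zab over WT. It was called for 5 of the 8 genes, against 53.1% of all genes (28.3% positive, 24.8% negative). SNAI2 gave 3.43 ± 0.539, ZEB1 1.53 ± 0.227, CDH2 1.50 ± 0.229 and RUNX1 0.91 ± 0.194 on the log2 scale (SE, limma adjusted p = 5.61e-06, 2.43e-06, 3.82e-06 and 0.000303). VIM gave -0.11 with an adjusted p of 0.0474, and it turned to 0.31 as deposited and 0.19 with library totals, each of which called 6 of the 8 genes, all positive. RUNX2, lower in both contrasts, gave -0.29 ± 0.516 (adjusted p = 0.668), and TWIST2 and PRRX1 were not called. The term is the Zab + MYC O/E over WT change less the MYC O/E over WT and Zab over WT changes. Only 0.601% of genes were called in Zab + MYC O/E over WT. For most genes the term thus largely restates the other 2 changes and is no separate evidence. MYC in Zab + MYC O/E stood at the WT level, and the part of this in the difference was not tested. The term cannot be read as a joint effect of Zab and MYC overexpression.

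Levels can be set side by side only per kilobase of counted exon. In WT, VIM stood at 1134 ± 31.8 CPM per kb (SD, n = 2), followed by CDH2 at 16.1 ± 0.392, RUNX1 at 11.0 ± 0.723, ZEB1 at 9.57 ± 0.687, TWIST2 at 6.71 ± 0.350 and SNAI2 at 6.19 ± 0.893. PRRX1 at 2.39 ± 0.281 and RUNX2 at 1.54 ± 0.610 came last of the 8. In WT only TWIST2 and SNAI2 overlapped among neighbours in this order. MYC O/E had another order below VIM, with ZEB1 at 8.42 ± 0.0263, TWIST2 at 7.49 ± 0.239, CDH2 at 7.003 ± 0.138, RUNX1 at 6.32 ± 0.522, RUNX2 at 5.60 ± 0.106, PRRX1 at 1.87 ± 0.276 and SNAI2 at 0.931 ± 0.357 CPM per kb. In Zab, ZEB1 at 3.53 ± 0.267 CPM per kb lay below TWIST2 at 8.04 ± 0.687. PRRX1 and RUNX2 overlapped in Zab + MYC O/E, as did ZEB1 with TWIST2 and TWIST2 with SNAI2. For TWIST2 the counted exon length was 1125 bases in 1 library and 899 in the other in Zab + MYC O/E, MYC O/E and WT. Its place, SD and overlaps in these groups depend in part on that difference. In MYC O/E its values before division by length were 8.24 and 6.89 CPM.

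**Figure D3:**
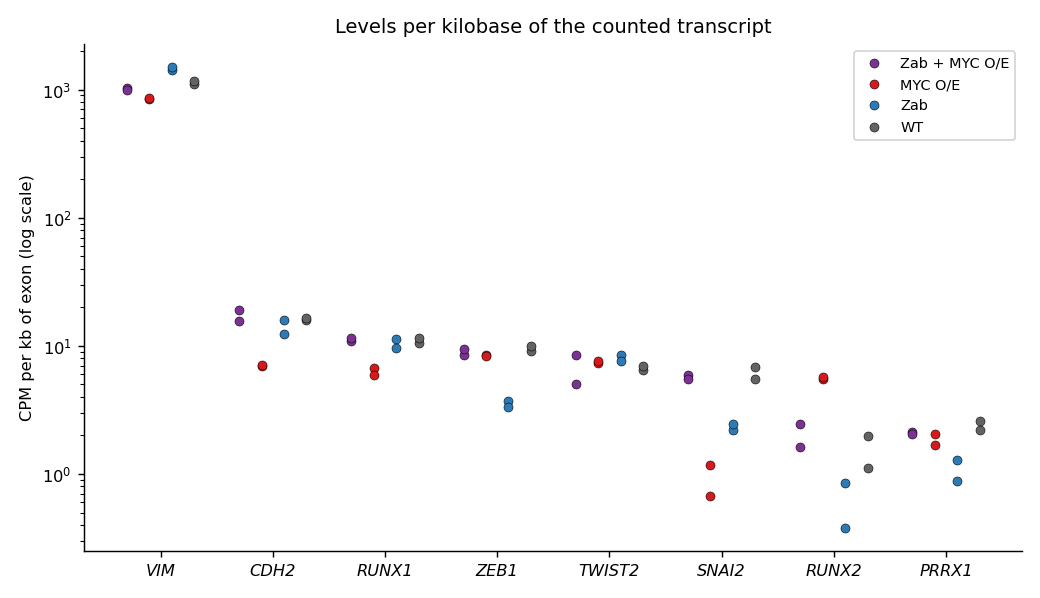
CPM per kilobase of the counted exons for each library, on a log scale, with genes ordered by their mean over all 8 libraries. VIM lies between 843 and 1498 in all groups, and the other 7 genes lie under 20, with SNAI2 and RUNX2 showing the widest spread between groups.

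The length of the gene moved with the change in Zab. Over all tested genes the median log2 change in Zab over WT was 0.37 for spans up to 5 kb, 0.16 for 5 to 20 kb, -0.15 for 20 to 100 kb and -0.33 above 100 kb. VIM, spanning 9.35 kb, was above the median of its class, and ZEB1 (211 kb) and RUNX2 (223 kb) lay below the lower quartile of theirs, -0.83. PRRX1 (75.3 kb) lay below the lower quartile of its class, -0.69. CDH2 (226 kb, log2 change -0.23) and RUNX1 (101 kb, -0.08) lay above the median of their class, and TWIST2 (75.5 kb, 0.37) above the upper quartile of its class, 0.32. SNAI2 spans 3.83 kb, where 40.7% of genes were higher and 9.11% lower in Zab, and it fell. The same medians in MYC O/E over WT were 0.03, 0.01, 0.02 and -0.13. The part of gene length in these results was not tested.

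**Figure D4:**
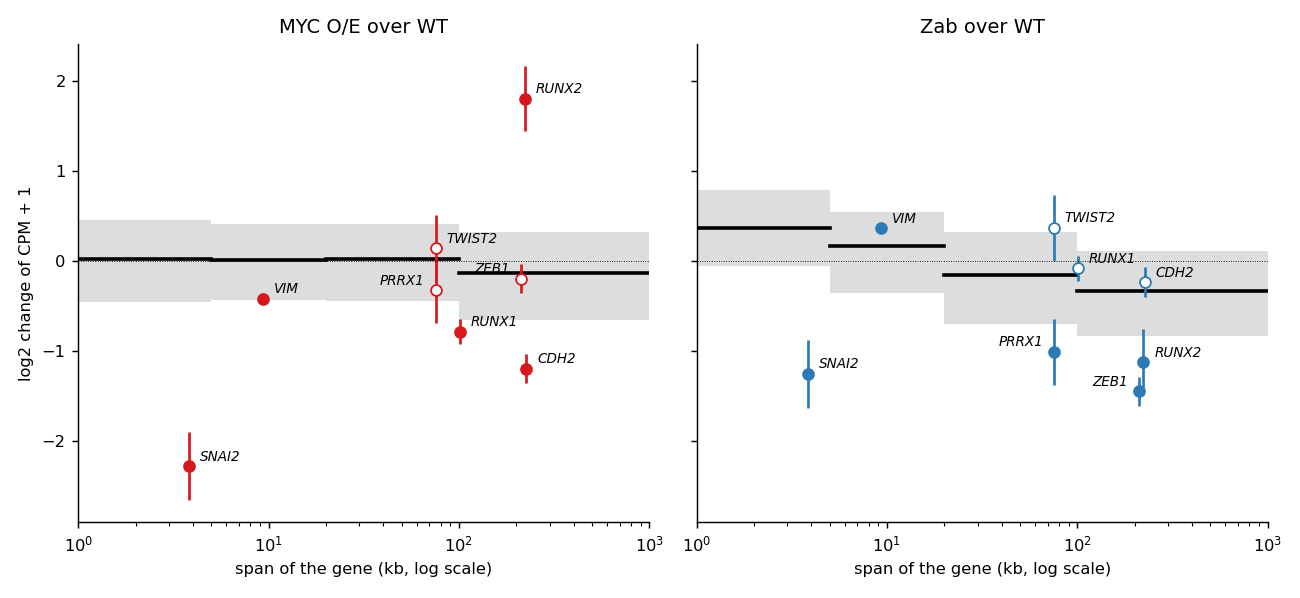
Log2 change of CPM + 1 against gene span on a log axis for MYC O/E over WT and Zab over WT. Points are the 8 genes with standard errors, filled where called, black lines are medians of all tested genes in 4 span classes and grey boxes their quartiles. In Zab the medians step from 0.37 in the shortest class to -0.33 in the longest, and SNAI2 lies at -1.25 in the shortest.

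Other mesenchymal markers fell in MYC O/E more often than they rose. Of 23 tested genes of 25 listed, 13 were lower and 4 higher in MYC O/E than in WT (median log2 change -0.67, all tested genes -0.01), and 8 were higher and 4 lower in Zab than in WT (median 0.08, all genes -0.05). Of all tested genes 21.8% were lower and 22.2% higher in MYC O/E, and 23.8% were higher and 25.9% lower in Zab. The galactoside-binding protein LGALS1 had 921 ± 25.8 CPM in Zab + MYC O/E, 124 ± 3.83 in MYC O/E, 1562 ± 16.2 in Zab and 911 ± 20.7 in WT (SD, n = 2 each). Fibronectin, FN1, had 419 ± 18.0, 60.6 ± 3.74, 521 ± 43.9 and 413 ± 15.1 CPM in the same order of groups. LGALS1 and FN1 thus fell in MYC O/E over WT and rose in Zab over WT (log2 changes -2.87 and 0.78 for LGALS1, -2.75 and 0.33 for FN1, all called by limma). The hyaluronan receptor CD44 fell in MYC O/E (log2 change -1.57) and rose in Zab (0.23). THY1 rose in both, by 0.51 and 0.44. As deposited, 9 of the list were lower and 5 higher in MYC O/E, and 12 were lower and 1 higher in Zab, where FN1 (-0.30), CD44 (-0.41) and THY1 (-0.19) turned to lower. With TMM scaling, the summed level of the list was 2858 to 2904 CPM in Zab + MYC O/E, 1176 to 1201 in MYC O/E, 3731 to 3775 in Zab and 2867 to 2900 in WT.

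The other regulators of the epithelial-mesenchymal transition split. Of 17 tested of 22, 6 rose and 5 fell in MYC O/E over WT, and 6 rose and 1 fell in Zab over WT (medians -0.12 and 0.04). Of all tested genes 22.2% rose and 21.8% fell in the first comparison, and 23.8% rose and 25.9% fell in the second, so the share of regulators called in Zab was below the 49.7% of all genes. The receptor kinase AXL had 221 ± 0.356 CPM in MYC O/E and 786 ± 23.3 in WT (SD, n = 2 each), a log2 change of -1.83. The transcription factor ETS1 and the chromatin protein HMGA2 also fell in MYC O/E (log2 changes -2.12 and -1.95). None of these 3 was called in Zab over WT, where their log2 changes were 0.01, -0.14 and 0.25 (limma adjusted p = 0.866, 0.195 and 0.0954). The growth factor TGFB1 rose in Zab by 0.63 and in MYC O/E by 0.39. Its signal carrier SMAD3 rose in Zab by 0.75, and the receptor NOTCH2 rose by 1.0 in MYC O/E and by 0.35 in Zab. As deposited, TGFB1 and NOTCH2 turned to lower in Zab over WT (-0.01 and -0.29), and the list had 11 lower and no higher genes there.

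Partners of the member proteins were all measurable, 21 of 21. Of these 6 rose and 8 fell in MYC O/E over WT, and in Zab over WT 10 rose and 4 fell (medians 0.13 and 0.37), beside 22.2% and 21.8% of all genes in MYC O/E and 23.8% and 25.9% in Zab. ID1 and ID3, which bind the helix-loop-helix partners of TWIST proteins and keep them off DNA, had 378 ± 18.4 and 300 ± 8.53 CPM in Zab and 165 ± 0.393 and 88.4 ± 6.35 in WT (SD, n = 2 each). Their log2 changes in Zab over WT were 1.19 and 1.75 (limma adjusted p = 6.95e-12 and 4.19e-13). TCF3, the helix-loop-helix partner itself, rose in both, by 0.96 in MYC O/E and 0.85 in Zab. CTNND1, the catenin that binds the inner tail of N-cadherin, fell in both (log2 changes -0.78 in MYC O/E and -0.34 in Zab). As deposited, 12 partners rose and 2 fell in MYC O/E over WT, and 2 rose and 8 fell in Zab over WT.

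Skeletal lineage lists were only partly transcribed. Of 30 osteoblast genes 15 were tested, and SP7, DLX3, DLX5, SOST, TNFSF11, MEPE and PTH1R had no read. Against WT, 2 rose and 6 fell in MYC O/E, with COL1A1 (log2 change -0.61), the WNT co-receptor LRP5 (-1.19) and the ubiquitin ligase SMURF1 (-0.40) among those that fell. In Zab over WT 1 rose and 4 fell, among them the stress and osteoblast factor ATF4 (-0.54), LRP6 (-0.50) and the BMP receptor BMPR1A (-0.73). Of 12 cartilage genes 5 were tested, and 3 fell in MYC O/E, the collagen COL11A1 (log2 change -3.06), SOX6 (-1.64) and the cartilage master factor SOX9 (-1.01). Of all tested genes 21.8% fell in MYC O/E and 25.9% in Zab, and the share of osteoblast genes called in Zab, 5 of 15, was below the 49.7% of all genes. COL11A1 (-0.89) and SOX9 (-0.38) also fell in Zab, while SOX6 had -0.78 (limma adjusted p = 0.149). As deposited, 8 osteoblast genes rose and 3 fell in MYC O/E, SMURF1 turned to 0.10, and 11 fell in Zab. COL9A1, COL10A1 and COMP were at 0 reads.

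Of 21 epithelial markers 8 were tested, and ESRP2, OVOL1, GRHL2, CLDN3, CRB3 and RAB25 had no read. Their summed level was 1283 to 1302 CPM in Zab + MYC O/E, 894 to 927 in MYC O/E, 2405 to 2542 in Zab and 1378 to 1418 in WT. Most of it came from the keratins KRT8 and KRT18, which fell in MYC O/E (log2 changes -1.06 and -0.41) and rose in Zab (0.67 and 0.94), KRT18 turning to 0.09 in MYC O/E as deposited. So the sum for epithelial markers, like that for mesenchymal markers, was highest in Zab and lowest in MYC O/E under TMM scaling. Sums were not taken on the deposited scale, where the median of all tested genes in Zab over WT was -0.63. This order may not hold there. OCLN, a junction protein, rose by 1.51 in MYC O/E over WT (limma adjusted p = 0.00382). It had 18.2 ± 3.08 CPM in MYC O/E and 6.74 ± 5.52 in WT (SD, n = 2 each), so the WT libraries lay far apart. It was not called in MYC O/E over Zab or in Zab + MYC O/E over MYC O/E (limma adjusted p = 0.105 and 0.116). EPCAM fell in Zab, where it had no read, from only 2.36 CPM in WT. In the Zab libraries 3 reads stand at 1.59 to 1.80 CPM, so this fall lies near the floor. In the Zab + MYC O/E over WT comparison, limma called 0 of the 94 tested genes of all 9 lists, with 2 at an unadjusted p under 0.05, edgeR called 0 and DESeq2 called 1, where 0.601% of all genes were called by limma. As deposited, 21 of the 94 were called and 39 had an unadjusted p under 0.05. Fat, muscle and blood lists held 3, 1 and 1 tested genes. PPARG was not called in either comparison under the main scaling (limma adjusted p = 0.139 in MYC O/E over WT and 0.0835 in Zab over WT). Of the 3 tested fat genes, 1 was lower in Zab over WT in the main test. With library totals and as deposited 2 were lower there, with list medians of -0.65 and -1.05. LPL was lower in Zab (log2 change -1.37, limma adjusted p = 0.0489), also near the floor, with 0.27 CPM in Zab and 2.20 in WT. PAX7 was lower in both (-1.14 and -1.29, limma adjusted p = 0.0473 and 0.0229), again near the floor. It had 3.18 ± 2.06 CPM in MYC O/E, 2.56 ± 0.617 in Zab and 7.72 ± 1.86 in WT. TAL1 was higher in MYC O/E (2.48, on 10.1 ± 1.75 CPM in MYC O/E and 1.0 ± 0.409 in WT).

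**Figure D5:**
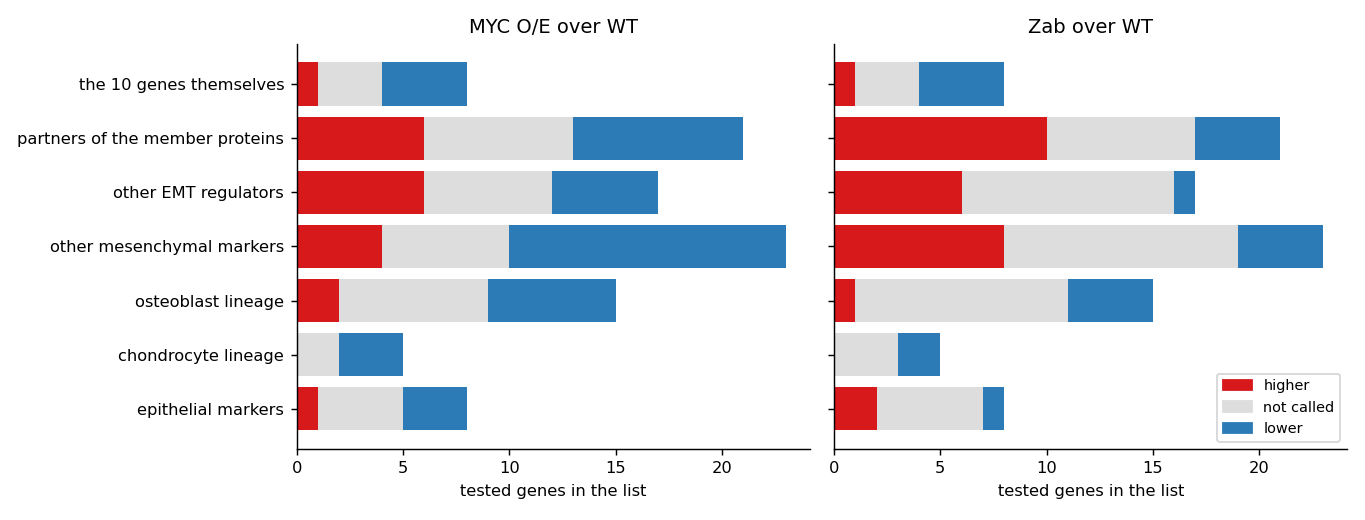
Number of tested genes of each list that were higher (red), not called (grey) or lower (blue) in MYC O/E over WT and in Zab over WT, by limma at an adjusted p under 0.05. Among other mesenchymal markers 13 of 23 were lower in MYC O/E and 4 of 23 in Zab, where 21.8% and 25.9% of all tested genes were lower.

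The genes whose pattern over the 8 libraries lay closest to each member were sought among 10760 genes averaging 5 CPM or more, by the root mean square distance of centred log2(CPM + 1) values. Closest to SNAI2 was HMOX1, at a distance of 0.162, with mean levels of 308 CPM in Zab + MYC O/E, 67.3 in MYC O/E, 142 in Zab and 319 in WT. Closest to RUNX2 was TGFB3, at 0.280, with 8.67, 23.2, 3.39 and 6.99 CPM in the same order of groups. ZEB1 lay closest to SOCS4 (0.0810), RUNX1 to RBM5 (0.0620) and CDH2 to RAB3B (0.0834). PRRX1 lay closest to ADPGK (0.0927), TWIST2 to CRY2 (0.0620) and VIM to RPL13A (0.0503). SNAI2 and RUNX2, with the largest spread over libraries, had the most distant neighbours. These distances describe 8 libraries in 4 groups that share their depth and scaling.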

How the data were processed

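Each file holds 1 library. Per the file headers, the authors ran HOMER analyzeRepeats on hg19 RefSeq exons with the minus strand setting, keeping for every symbol 1 transcript, which could differ between libraries. Tools in the submitters' processing notes are bedtools 2.29.2, SAMtools 1.11, STAR and Trim Galore 0.6.6, and builds are hg19 and dm6. The deposited values are a signal, whole reads times a factor per library (0.204 to 0.259) of a basis not given in the sources used here. As dm6 is a fly build, a spike-in is possible but not stated. TMM removes a shift shared by most genes, which the deposited scale keeps, so both are given where they differ. Dividing by it gave whole reads within 0.02 for 100% of values up to 1000 reads. Of values from 1 to 20 reads, 77.2% to 82.7% were even, so reads mostly came in pairs and counting limits are too narrow.

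The deposited signal was scaled with TMM (edgeR 4.0.16) to CPM, and genes were kept by filterByExpr at 10 recovered reads (11985 of 19414). All 8 libraries entered one limma 3.58.1 fit (R 4.3.3) on log2(CPM + 1) with a variance trend and 4 residual degrees of freedom. limma moved each gene's variance toward this trend, so standard errors and p-values also draw on other genes of similar level. The SEs of TWIST2, PRRX1 and RUNX2 in MYC O/E over WT were thus nearly equal, 0.367, 0.368 and 0.365. Levels per kb used the length of the counted transcript. An exact permutation of 2 against 2 libraries cannot go below p = 0.333. All replicate pairs differed by about the sampling noise of paired reads (chi-square per gene 1.99 to 2.05), except that the Zab pair gave 10.8 over its 22 genes with more than 10000 reads, against 1.79 to 3.05 for such genes elsewhere. Same-numbered replicates did not deviate together (correlations -0.02 to 0.00), so the numbers were not used as pairs.

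Simulated reads for MYC O/E over WT (11856 genes tested) gave calls for 29% of log2 changes of 0.5, 74% of changes of 1 and 0% of unchanged genes. Only 100 genes were changed at each size, all of them well covered, with a common dispersion. In the data 44% of genes were called in this comparison, so these rates need not carry over. Alternatives were other pseudocounts, scalings, filters, edgeR and DESeq2 1.42.0 on recovered reads, a replicate block, averaged pairs, per-kb values and leaving out libraries. Leaving out both Zab or both Zab + MYC O/E libraries was chosen after seeing the data. The members and gene lists were chosen with earlier results of these data known. Named genes are the 10 members, the 3 smallest p per list in MYC O/E over WT and in Zab over WT, MYC and ADAR, and the nearest gene to each tested member. CBFB and COL1A1 are list genes. The genes with few or no reads given in the marker check, and GATA2, fall outside this rule and were chosen after their values were seen.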

Additional observations from a re-analysis of the deposited data

Results flagged for a closer look

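For 5 of the 8 tested genes, the change with Zab + MYC O/E over MYC O/E differed from that of Zab over WT, by the interaction term of the limma fit. The difference was 3.43 for SNAI2, 1.53 for ZEB1, 1.50 for CDH2, 0.91 for RUNX1 and -0.11 for VIM on the log2 scale. SNAI2 was higher in the first contrast (2.18) and lower in the second (-1.25), whereas ZEB1 was called only in the second. CDH2 and RUNX1 were called in the first and not in the second under the main scaling, but in the second CDH2 was called with library totals (-0.43) and as deposited (-0.85), and RUNX1 as deposited (-0.71). Among all tested genes 53.1% passed the same test. For most genes the term largely restates the MYC O/E over WT and Zab over WT changes. Only 0.601% of genes were called in Zab + MYC O/E over WT. The VIM value lost its call under several alternatives, such as another filter or leaving out most single libraries, and turned positive with library totals (0.19) and as deposited (0.31).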

How the results depend on the processing

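Depth limits SNAI2, TWIST2, RUNX2 and PRRX1, which had under 35 reads in several libraries. Counts of called genes moved in these cases, by over 1.5 times except in Zab over WT as deposited. The ranges with a library left out also include unmoved counts. MYC O/E over WT gave 3 (main 5) as deposited. Zab over WT (main 5) gave 3 with DESeq2, 2 with averaged pairs and 3 to 5 with a library left out, and as deposited 7, all lower. Zab + MYC O/E over WT (main 1) gave 0 with library totals, with no filter and with averaged pairs, with 1 member at an unadjusted p under 0.05 each time, and 0 to 1 with a library left out. Zab + MYC O/E over Zab (main 4) gave 7 with library totals and 7 as deposited. The replicate block gave 5, 5, 1, 5, 4, 6 and 5 called genes, the main counts in each comparison, and changed no call. Leaving out both Zab or both Zab + MYC O/E libraries, chosen after seeing the data, changed no call among the 8 genes. The cause of each move was not tested.

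Directions turned round as deposited, where the medians of all genes shifted by -0.63 to 1.113. In MYC O/E over WT they were PRRX1 0.13, VIM 0.077 and ZEB1 0.29. In Zab over WT they were TWIST2 -0.19 and VIM -0.27. In Zab + MYC O/E over WT they were PRRX1 0.075, SNAI2 0.16, TWIST2 0.21, VIM 0.12 and ZEB1 0.16. In Zab + MYC O/E over MYC O/E they were PRRX1 -0.050 and ZEB1 -0.13. In Zab + MYC O/E over Zab they were TWIST2 0.40 and VIM 0.39. In MYC O/E over Zab they were CDH2 0.14, RUNX1 0.41, TWIST2 0.77 and VIM 0.35. The VIM interaction was 0.31, and 0.19 with library totals, which also gave TWIST2 0.00397 in Zab + MYC O/E over WT.

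Leaving out 1 library turned only values that were not called, in these ranges over the 8 libraries. TWIST2 ran from -0.044 (without WT replicate 1) to 0.33 in MYC O/E over WT, and RUNX1 from -0.20 to 0.026 (without Zab replicate 2) in Zab over WT. In Zab + MYC O/E over WT, CDH2 ran from -0.042 (without Zab + MYC O/E replicate 1) to 0.19, RUNX1 from -0.026 (without WT replicate 1) to 0.10, SNAI2 from -0.23 to 0.043 (without WT replicate 1) and TWIST2 from -0.22 to 0.16 (without Zab + MYC O/E replicate 1 or WT replicate 2). TWIST2 in Zab + MYC O/E over MYC O/E ran from -0.36 to 0.018 (without Zab + MYC O/E replicate 1), and the RUNX2 interaction from -0.73 to 0.16 (without Zab replicate 1; 0.092 without WT replicate 1).

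Over all tested genes, Zab + MYC O/E over WT called 72 genes in the main test, 1752 as deposited, 17 with no filter, 146 with edgeR, 126 with DESeq2, 0 with averaged pairs (limma, 199 at an unadjusted p under 0.05), 191 without both Zab libraries and 22 to 155 with a library left out. Averaged pairs gave 3463 in MYC O/E over WT (main 5276), 3967 in Zab over WT (main 5956) and 3969 in Zab + MYC O/E over Zab (main 5979), where the deposited scale gave 9044. Among all tested genes, the split of higher and lower calls as deposited was 1853 and 4006 in Zab + MYC O/E over MYC O/E (main 2621 and 2712), 8807 and 237 in Zab + MYC O/E over Zab (main 3094 and 2885), 8999 and 599 in MYC O/E over Zab (main 3547 and 3202), and 5044 and 1837 for the interaction (main 3391 and 2972).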
